A study of Mus musculus with 21 samples.

Results

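The Hox genes are the 39 mouse genes whose symbols join Hox, a cluster letter from a to d and a number, and all 39 were found among the 24391 gene symbols counted in each library. Expression was measured by RNA sequencing in 3 organs (skin, liver and brain) of newborn (P0) mice labelled C57BL/6 (C57BL/6J in the study's methods), with 1 library for each mouse and organ and 21 libraries in all. The knock-in group (KI) held 2 mice heterozygous for a Jak1 allele edited with CRISPR-Cas9, written H595D with the silent changes I596I and Y597Y, and the wild-type group (WT) held 5 mice with no edited allele. JAK1 is a tyrosine kinase that passes cytokine signals to the nucleus. By the study's account the KI mice descend from a single mosaic founder male, and neither the sexes, the litters nor the way in which the organs were cut out are given in the sources used here. The p-values therefore measure the spread between these mice.

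Hox genes encode transcription factors that bind DNA through a homeodomain, and together they tell cells where along the body they lie. They sit in 4 clusters, and genes with the same number in different clusters are called a paralog group. Genes at the low-numbered end of a cluster are used nearest the head, from the hindbrain backwards, and genes at the high-numbered end are used at the tail, in the outer limbs and in the urogenital region. The forebrain and midbrain are patterned without Hox genes, so in a whole brain most Hox transcripts mark the hindbrain and any attached spinal cord. Fibroblasts of the skin keep a Hox code of the place they come from. In the liver, several Hox genes of the a and b clusters are known from blood-forming cells.

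On the mouse build mm9 (NCBIM37) the Hoxa cluster spans chr6:52105366-52210874 with 11 genes, the Hoxb cluster chr11:96055630-96229570 with 10 genes, the Hoxc cluster chr15:102751534-102867274 with 9 genes and the Hoxd cluster chr2:74506367-74603200 with 9 genes. Of the 39 genes, 18 share exon bases with another annotated gene, among them Hoxb7 with Hoxb8 and Hoxd3 with Hoxd4. The library kit named by the study does not mark strand, so that reads of a Hox gene and of an antisense transcript over it cannot be told apart.

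The homeobox is the stretch of coding DNA that the family shares, and it was read for all 39 genes, each of which was found at 1 place in the genome. The homeoboxes of 4 genes on which the results below turn are shown, 5′ to 3′ on the coding strand, with the 18 bases that encode the DNA-contacting motif of the third helix in capitals. Hoxa5 had the highest mean level per length of the Hox genes in the WT brains, Hoxb8 was the gene called in the liver, and Hoxa13 and Hoxd13 mark the tail end of the series.
Hoxa5 (chr6:52152631-52152810, minus strand): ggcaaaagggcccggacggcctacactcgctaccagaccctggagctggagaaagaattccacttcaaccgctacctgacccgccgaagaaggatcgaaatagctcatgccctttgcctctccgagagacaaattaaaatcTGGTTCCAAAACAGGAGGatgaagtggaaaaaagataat
Hoxb8 (chr11:96145488-96145667, plus strand): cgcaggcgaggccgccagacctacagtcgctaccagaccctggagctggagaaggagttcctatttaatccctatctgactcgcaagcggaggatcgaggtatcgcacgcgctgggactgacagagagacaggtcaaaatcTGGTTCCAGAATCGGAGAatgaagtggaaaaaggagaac
Hoxa13 (chr6:52208927-52209106, minus strand): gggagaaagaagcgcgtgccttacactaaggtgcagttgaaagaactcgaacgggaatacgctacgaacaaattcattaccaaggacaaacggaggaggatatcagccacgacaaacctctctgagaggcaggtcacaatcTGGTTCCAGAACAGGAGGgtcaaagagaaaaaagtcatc
Hoxd13 (chr2:74507987-74508166, plus strand): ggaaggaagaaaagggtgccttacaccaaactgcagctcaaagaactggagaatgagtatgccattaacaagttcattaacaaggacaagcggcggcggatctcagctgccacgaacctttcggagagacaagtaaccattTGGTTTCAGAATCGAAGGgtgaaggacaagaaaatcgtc
The paralogs Hoxa13 and Hoxd13 were identical at 133 of the 180 bases (73.9%), whereas Hoxa5 and Hoxa13, of the same cluster, were identical at 97 (53.9%). Over all 42 pairs within a paralog group the identity ranged from 67.2% to 93.9%, with a median of 80.6%. The longest run of bases shared exactly by any pair of homeoboxes was 52 bases, so that most reads over a homeobox hold bases that differ between paralogs.

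The libraries held between 26549326 and 38388133 counts on genes, with a median of 32240708. Levels are given as CPM, a gene's counts scaled to a fixed library total and adjusted within each tissue by the trimmed mean of M-values (TMM), and a gene is called present in a tissue when each of the 5 WT libraries held at least 10 counts. Jak1 itself was counted in every library, between 114 and 212 CPM. Tissue markers fitted the labels of the liver (Alb, 87984 CPM or more) and of the skin (Col1a1, 18092 CPM or more) in every library. In the brain the neuronal gene Tubb3 lay between 2099 and 3553 CPM, but the 17 forebrain genes listed summed to only 224 and 200 CPM in the brains of WT 2 and WT 3, against 329 to 939 CPM in the other 5 brains.

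The 3 tissues of the WT mice held different parts of the Hox series. In the brain 9 of the 39 genes were present, of paralog groups 2 to 5. In the liver 6 were present, of groups 2 to 5 and of the a and b clusters only. In the skin 29 were present, of groups 1 to 13. A further 14 genes reached 10 counts in some but not all WT brains, 7 in some WT livers and 8 in some WT skins. Of the 12 genes of groups 10 to 13, none reached 10 counts in any WT brain or liver, and 8 were at 0 counts in all 5 WT brains and 10 in all 5 WT livers. A count of 0 allows a level of up to 3 counts in a library, and it speaks of reads, not of cells. In whole tissue, fewer cells that express a gene and less RNA per cell cannot be told apart.

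**Figure D1:**
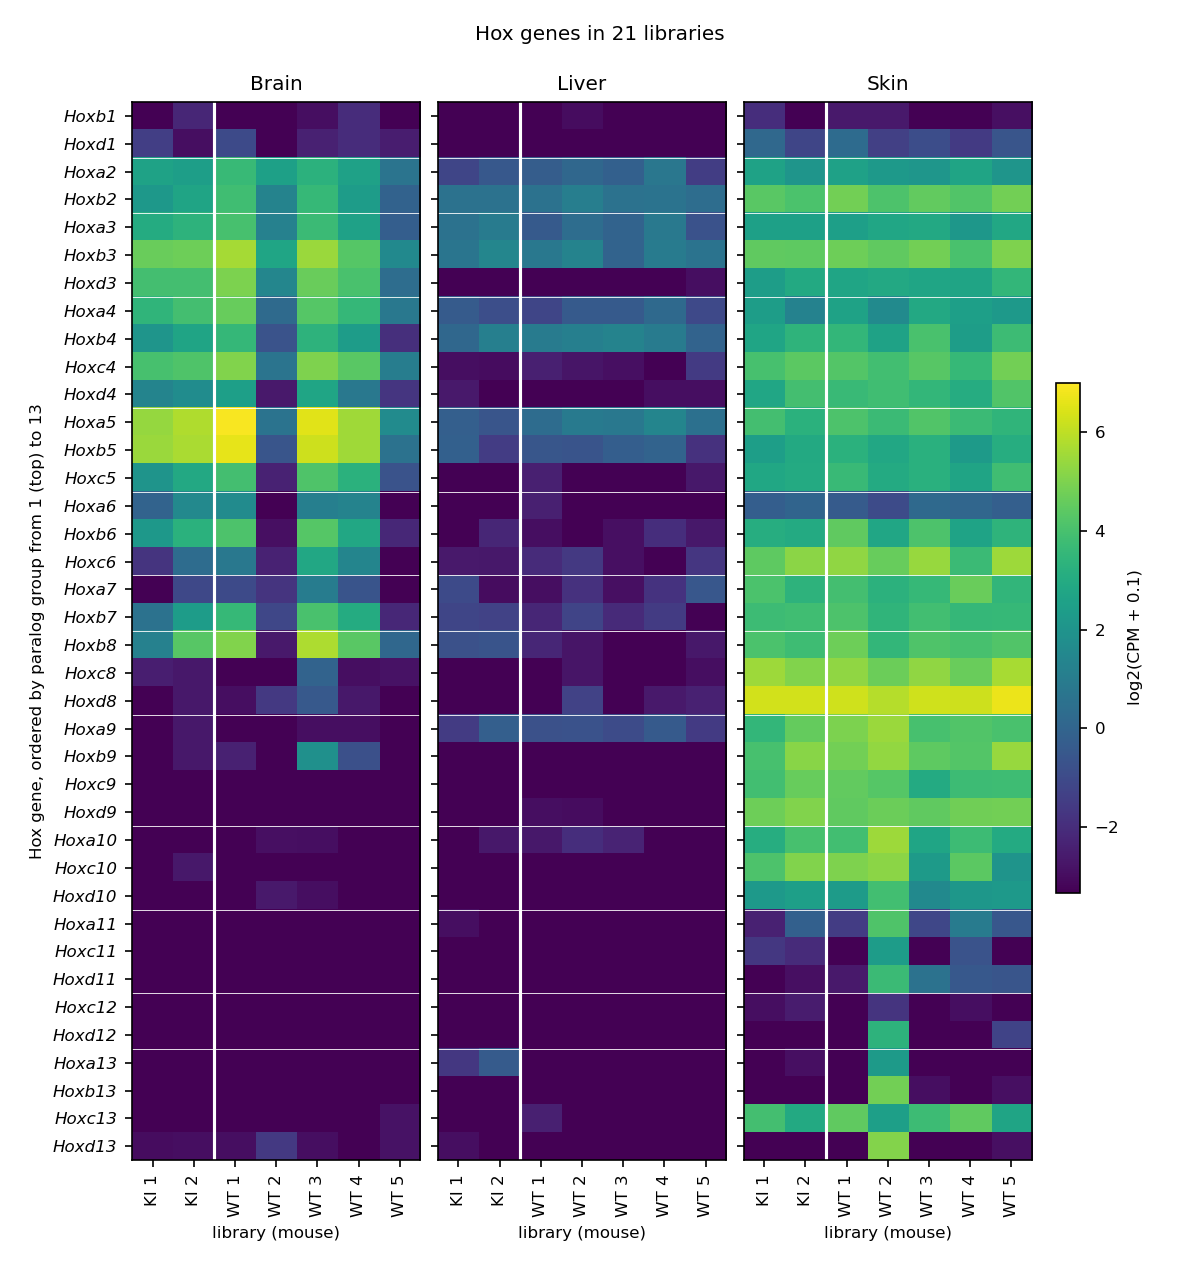
Level of 38 Hox genes (vertical, ordered by paralog group from 1 at the top to 13) in the 21 libraries (horizontal, KI left and WT right of the white line in each tissue), as log2(CPM + 0.1) in colour. The brain is filled from group 2 to group 8, unevenly between mice, the liver is faint, and the skin is filled to group 10, with the WT 2 skin alone filled to group 13 apart from Hoxc12.

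Per length of the longest coding transcript, the highest Hox genes of the WT brain were Hoxa5, Hoxb5, Hoxb3 and Hoxc4. Hoxa5, which is needed in the neck region, including the motor neurons of the diaphragm, reached 28.2 ± 28.3 CPM per kilobase (SD, n = 5), Hoxb5 15.8 ± 15.6, Hoxb3 12.5 ± 10.8 and Hoxc4 8.41 ± 7.36. These SDs were as large as the means or nearly so, and the order of the 4 levels lay within them. With lengths taken over all exons of a gene Hoxb8 entered the 4 highest and Hoxc4 left them.

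Libraries of the WT brain differed far more in Hox genes than in other genes. Hoxa5 stood at 120, 1.43, 93.5, 46.7 and 3.07 CPM in the brains of WT 1, 2, 3, 4 and 5. Hoxb5 stood at 98.9, 0.551, 74.7, 46.7 and 1.40 CPM in the same order. The brains of WT 1 and WT 3 were highest and those of WT 2 and WT 5 lowest, for both genes. Hoxb3, a gene of the hindbrain behind the ear, stood at 48.8, 6.62, 44.0, 19.6 and 2.87 CPM, and Hoxc4 at 33.2, 1.46, 32.3, 20.2 and 1.96 CPM. The same 2 brains were lowest again.

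The SD of log2 CPM over the 5 WT brains had a median of 2.53 over the 20 Hox genes that passed the filter on low counts, against 0.330 over all 16322 genes that passed it, and 18 of the 20 lay among the 5% of genes with the largest SD. The 20 are the Hox genes with enough counts in these libraries, and the other 19 are not described by this median. Among the smallest SDs were those of Hoxa2 (1.17) and Hoxb2 (1.66), genes of the front hindbrain. Hoxa2 stood at 12.4, 5.80, 9.71, 5.86 and 1.48 CPM and Hoxb2 at 14.3, 2.33, 12.1, 5.06 and 0.838 CPM in WT 1 to WT 5. For both the WT 2 brain lay closer to the others and the WT 5 brain was the lowest. The largest SDs were those of Hoxb5 (3.45), Hoxb6 (3.71) and Hoxb8 (3.75). Hoxb6 stood at 17.5, 0.0324, 19.1, 7.14 and 0.120 CPM, and Hoxb8, which is used in the spinal cord and in a lineage of microglia, at 33.2, 0.0649, 53.7, 20.3 and 0.998 CPM. The highest Hoxb8 level was 828 times the lowest, while for Hoxa2 the ratio was 8.42.

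The spread rose from the front of the series to group 5 and was uneven beyond it. The median SD was 1.42 for the genes of group 2, 1.79 for group 3, 2.40 for group 4 and 3.10 for group 5. It was 2.07 over the 13 genes of groups 1 to 5 and 2.93 over the 7 of groups 6 to 9. Leaving out each WT brain in turn gave between 1.95 and 2.31 for the former and between 2.53 and 3.18 for the latter. These medians describe genes of the same 5 libraries, which are not independent of each other.

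**Figure D2:**
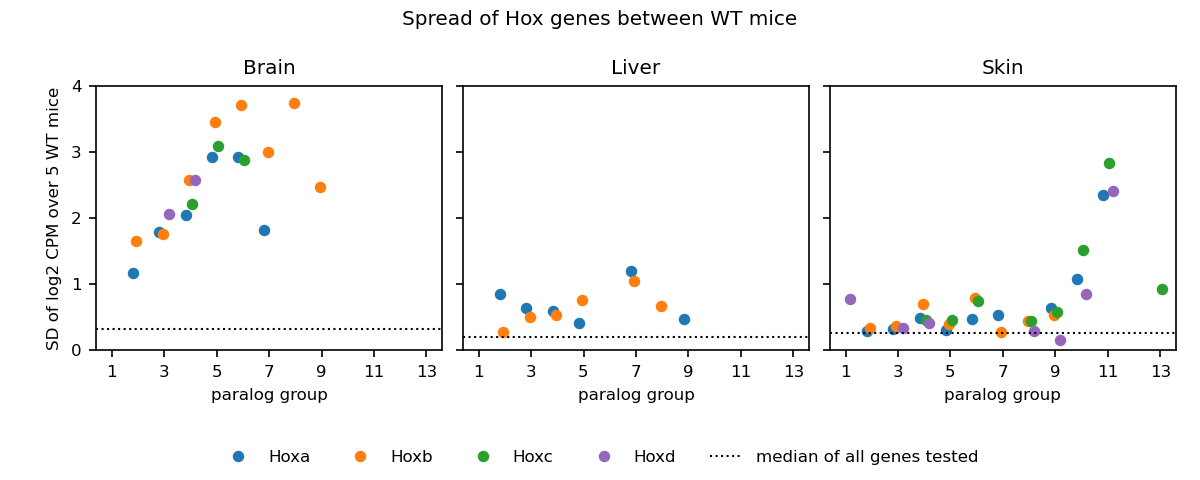
SD of log2 CPM over the 5 WT mice (vertical) of Hox genes that passed the filter, by paralog group (horizontal) and cluster (colour). Drawn are 19 of the 20 genes for the brain, 12 of the 13 for the liver and 32 of the 33 for the skin. The dotted line is the median of all genes tested, 0.330, 0.200 and 0.258. The brain points lie between 1.17 for Hoxa2 and 3.75 for Hoxb8, rising up to group 5 and uneven beyond it. The skin points leave the line at groups 10 to 13.

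The brains differed along the series in different ways. The summed CPM of a paralog group is set here against the median of the 5 WT brains. In the WT 2 brain group 2 stood at 74.5% of that median, group 3 at 27.5%, group 4 at 8.10%, group 5 at 2.02% and group 6 at 1.09%. This brain thus kept most of group 2 and held little from group 4 on. In the WT 5 brain group 2 stood at 21.2%, group 3 at 11.6%, group 5 at 4.85% and group 6 at 1.00%, so that the whole series was low. In the WT 3 brain group 3 stood at 196% and group 8 at 271%. It held the most RNA of the groups furthest along, with 111 counts of Hoxb9, 28 of Hoxc8 and 20 of Hoxd8. Hoxb9 was counted 3, 0, 16 and 0 times in the brains of WT 1, 2, 4 and 5, and neither Hoxc8 nor Hoxd8 exceeded 7 counts in any of them. By the highest group with at least 10 counts of a member, the brains of WT 1 to 5 reached groups 8, 7, 9, 9 and 8, and those of KI 1 and KI 2 group 8.

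Genes of other regions moved between the same brains. Of the 20 genes listed for the hindbrain and brainstem, 10 were lowest among the WT brains in WT 5, where the list summed to 153 CPM, against 188 to 243 CPM in WT 1, WT 3 and WT 4 and 213 to 227 CPM in the KI brains. The list was highest in WT 2, at 288 CPM, although this brain was low in Hox genes from group 3 on. Slc6a5, the glycine transporter of inhibitory neurons of the hindbrain and spinal cord, stood at 1 count in WT 5 and between 287 and 817 counts in the other 6 brains. Of the 17 forebrain genes listed, 14 were highest in WT 5, where they summed to 939 CPM, against 200 CPM in WT 3, 224 CPM in WT 2, 329 CPM in WT 1, 401 CPM in WT 4 and 436 to 504 CPM in the KI brains. The brain with the least Hox RNA was thus the one with the most forebrain RNA, but WT 2 was low in both. Of the 10 skeletal muscle genes listed, 8 were highest in the WT 3 brain, where they summed to 67.6 CPM, against 13.4 to 26.1 CPM in the other WT brains and 11.4 to 13.9 CPM in the KI brains. Mylpf, a myosin light chain of fast muscle fibres, stood at 13.1 CPM there and at 2.98 CPM or less elsewhere. The 12 fibroblast and mesenchyme genes listed summed to 950 CPM in WT 2, against 226 to 510 CPM in the other 6 brains. The 8 hepatocyte genes listed summed to 2558 CPM in WT 5 and to 35.3 CPM in WT 2, and nearly all of the former was Ttr (2551 CPM), which the choroid plexus also expresses. Alb did not exceed 6.91 CPM in any brain. The part that the extent of each dissection and these cell types had in the Hox levels was not tested.

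**Figure D3:**
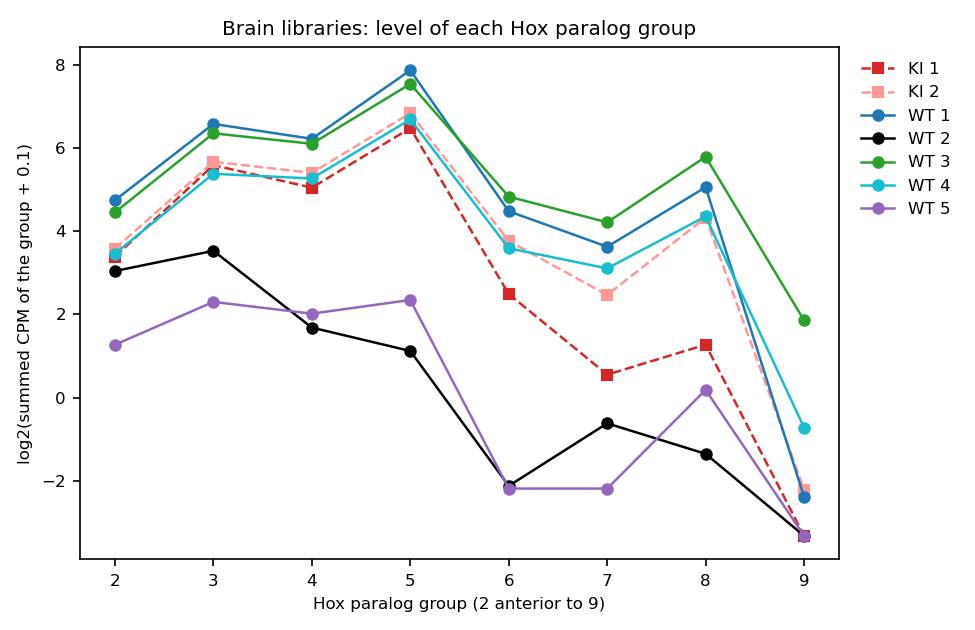
Summed CPM of each Hox paralog group (vertical, as log2 of the sum + 0.1) against the group number from 2 to 9 (horizontal) in each brain library, with KI mice as squares on dashed lines and WT mice as circles on solid lines. The WT 1 and WT 3 lines run highest up to group 8, the WT 2 line falls away from group 4 on, the WT 5 line is low throughout, and the KI 1 line leaves the KI 2 line from group 6 on.

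In the brain no Hox gene was called between KI and WT mice. Of the 20 Hox genes tested, 0 passed an adjusted p of 0.1 in edgeR's quasi-likelihood test and 0 had an unadjusted p under 0.05, against 2.8% of all genes higher and 7.81% lower. DESeq2 also called 0 of the 17 it gave an adjusted p. In all genes tested 0% were called higher and 0% lower by edgeR, and 3.7% in either direction by DESeq2. The median log2 fold change was -0.13 over the 20 Hox genes and -0.02 over all genes, with 5 Hox genes above 0 and 15 below. No Hox gene had both KI brains beyond all 5 WT brains, against 11.2% of all genes higher and 15.8% lower.

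The 6 Hox genes with the smallest p in the brain were Hoxb9, Hoxa7, Hoxc6, Hoxb7, Hoxb8 and Hoxa2. Hoxb9, which acts with its paralogs in the rib-bearing trunk, had 0 and 2 counts in KI 1 and KI 2 and 3, 0, 111, 16 and 0 counts in WT 1 to WT 5, a log2 fold change of -4.66 with a standard error (SE) of 2.63 and an adjusted p of 0.591 in edgeR. The WT mean was carried by WT 3, and Hoxb9 passed the filter on low counts only through WT brains. Hoxc6, a gene of the forelimb level, stood at 0.195 and 1.16 CPM in KI 1 and KI 2 and at 1.66, 0.0973, 7.23, 2.47 and 0 CPM in WT 1 to WT 5. Hoxb8 stood at 2.23 and 19.9 CPM in the KI brains, inside the WT range, with a log2 fold change of -0.97 (SE 1.71, adjusted p = 0.871 in edgeR). Both KI brains lay between the WT extremes in each case. Hoxa7 had 0 and 13 counts in the KI brains and 13, 6, 61, 18 and 0 counts in the WT brains. Hoxb7 stood at 1.37 and 5.05 CPM in the KI brains and at 11.9, 0.357, 16.5, 7.98 and 0.120 CPM in the WT brains, and Hoxa2 at 6.00 and 5.37 CPM in the KI brains, close to the WT median of 5.86 CPM. For these 3 genes the groups overlapped and the adjusted p in edgeR was 0.736, 0.814 and 0.887 in turn.

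The summed level of groups 1 to 5 was 201 ± 27.3 CPM (SD, n = 2) in the KI brains and 206 ± 189 CPM (SD, n = 5) in the WT brains. That of groups 6 to 9 was 24.1 ± 21.1 CPM in KI and 43.4 ± 44.8 CPM in WT. KI 1 held 9.20 CPM of groups 6 to 9 and KI 2 39.1 CPM, so that the KI brains differed from each other by more than their mean differed from the WT mean. Without the brains of WT 2 and WT 3, the lowest in forebrain genes, edgeR again called 0 Hox genes. With the spread seen in these brains, a difference between genotypes was not detectable unless it was large.

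In the liver all Hox genes were low. Per length, the highest were Hoxa5 at 0.894 ± 0.276 CPM per kilobase (SD, n = 5 WT mice), Hoxb3 at 0.847 ± 0.282, Hoxb2 at 0.447 ± 0.0963 and Hoxb4 at 0.436 ± 0.135. The levels of Hoxa5 and Hoxb3 lay within their SDs of each other, as did those of Hoxb2 and Hoxb4. Hoxb4, which promotes the growth of blood stem cells, stood at 1.88, 2.09, 2.35, 1.85 and 0.872 CPM in the livers of WT 1 to WT 5. Hoxb3 stood at 1.65, 2.37, 0.887, 1.88 and 1.44 CPM, and Hoxb2 at 1.39, 2.02, 1.36, 1.44 and 1.17 CPM. No single WT liver was lowest in all 3. All 9 Hoxc genes and 8 of the 9 Hoxd genes stayed under 10 counts in every WT liver, the exception being Hoxd8 with 12 counts in WT 2.

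The spread of Hox genes between WT livers was smaller than between brains. The SD of log2 CPM had a median of 0.648 over the 13 Hox genes that passed the filter, against 0.200 over all 14966 genes. Of the 13, 2 lay among the 5% of genes with the largest SD, Hoxa7 and Hoxb7. These Hox genes had few counts, and they were set against all genes, not against genes of like level. The part of low counts in these SDs was not tested. The smallest SDs were those of Hoxb2 (0.277), Hoxa5 (0.416) and Hoxa9 (0.469), and the largest included those of Hoxb7 (1.05) and Hoxa7 (1.2). Hoxa9, a factor of blood-forming progenitors, had 17, 20, 12, 21 and 8 counts in WT 1 to WT 5, and Hoxa7 had 1, 7, 1, 6 and 20.

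Between KI and WT livers 1 of the 13 Hox genes tested was called, Hoxb8, which was higher in KI. In all genes tested edgeR called 3.89% higher and 1.68% lower. Hoxb8 had 16 and 19 counts in KI 1 and KI 2 and 4, 2, 0, 0 and 2 counts in WT 1 to WT 5. It thus passed the filter on low counts only through the KI livers, the group in which it was high, which favours a call in this direction. Each KI value exceeded every WT value, as it did for 13% of all genes. The means were 0.519 ± 0.0297 CPM (SD, n = 2) in KI and 0.0454 ± 0.0482 CPM (SD, n = 5) in WT, and the log2 fold change was 3.37 (SE 0.798, adjusted p = 0.0642 in edgeR). Without KI 1, KI 2 or WT 2 the adjusted p was 0.246, 0.356 and 0.118, over all alternatives it ran from 0.0572 to 0.579, and DESeq2 gave no adjusted p for this low gene. Hoxb7, which shares exon bases with Hoxb8, had 11 and 11 counts in KI and 4, 13, 4, 8 and 0 counts in WT, with overlapping groups and an adjusted p of 0.607 in edgeR.

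Hoxa5 had the lowest log2 fold change of the liver Hox genes tested. It had 25 and 20 counts in KI 1 and KI 2 and 40, 70, 49, 79 and 43 counts in WT 1 to WT 5. Both KI livers lay below all WT livers, as they did for 11.3% of all genes. The level was 0.673 ± 0.148 CPM (SD, n = 2) in KI and 1.68 ± 0.519 CPM (SD, n = 5) in WT. The log2 fold change of -1.31 (SE 0.402) did not pass the test in edgeR (adjusted p = 0.129) and passed it in DESeq2 (adjusted p = 0.0385, with a range of 0.0385 to 0.810 over all alternatives), which called 1 Hox gene in the liver and 9.95% of all genes.

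Of the other Hox genes with a small p in the liver, Hoxa3, needed for the thymus and the parathyroid glands, had 45 and 66 counts in KI and 23, 47, 26, 55 and 17 in WT. Hoxa2, which patterns the second pharyngeal arch, had 11 and 22 counts in KI and 25, 39, 23, 51 and 9 in WT. The groups overlapped for both. Over the 13 Hox genes tested 7 lay above 0 and 6 below, the median log2 fold change was 0.04 against -0.02 for all genes, and unadjusted p was under 0.05 for 2 higher genes and 1 lower, against 9.49% of all genes higher and 8.41% lower.

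Hoxa13, the last gene of the a cluster, did not pass the filter and was found only in KI livers. It had 7 and 24 counts in KI 1 and KI 2 and 0 counts in all 5 WT livers. Against a floor of 3 counts over the 168502400 counts of the WT livers together, the KI level as counted was 26.1-fold higher. It was 12.2-fold higher without KI 2, which held most of the counts. The floor bounds the WT side only, and the KI counts are taken as they stand, without their own spread. Without a filter on low counts edgeR gave Hoxa13 an adjusted p of 0.0403, which was 0.161 with the filter and without KI 1, and 0.545 in 1 fit of all 21 libraries. It is named here because of these counts, not by a rule. Beside it Hottip, a noncoding transcript from the 5′ end of the same cluster, had 2 and 3 counts in KI and 0 in WT. The neighbours Hoxa10 and Hoxa11 had at most 6 counts in any liver. Of the tissues next to the liver, the gut gene Cdx2 was at 0 in every liver, Pdx1 and Prss2 did not exceed 2 counts, and Cpa1, a digestive enzyme of the pancreas, was higher in KI, with 102 and 147 counts against 5 to 32 in WT (log2 fold change 2.72, SE 0.475, adjusted p = 0.0227 in edgeR). Cyp11a1, a steroid enzyme of the adrenal gland, was also higher, with 51 and 50 counts in KI against 3 to 22 in WT. Of the 7 tested genes of this kind 2 were called higher and 0 lower, against 3.89% and 1.68% of all genes. The list of 15 genes for tissue next to the liver summed to 20.3 and 27.6 CPM in the KI livers and 16.1 to 21.7 CPM in the WT livers. The part of such tissue in the Hoxa13 and Hoxb8 counts was not tested.

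**Figure D4:**
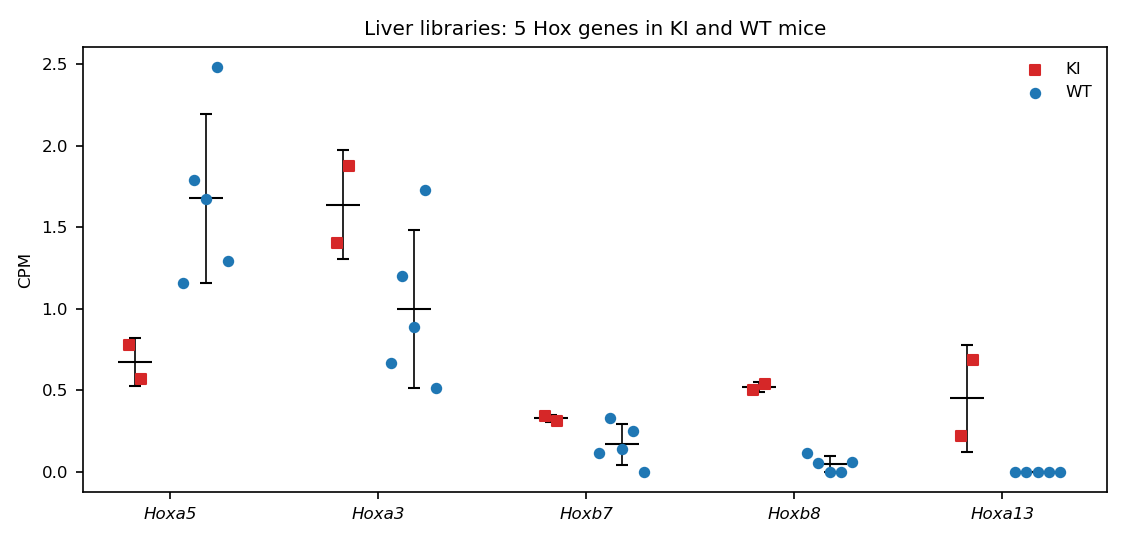
CPM (vertical, linear) of 5 Hox genes in the liver of 2 KI mice (red squares) and 5 WT mice (blue circles), 1 point per mouse, with the mean and 1 SD in black. Hoxb8 and Hoxa13 lie higher in both KI livers than in any WT liver and Hoxa5 lies lower, and for Hoxa3 and Hoxb7 the KI and WT points overlap.

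The skin carried most of the series. Per length the highest genes were Hoxd8 at 29.5 ± 6.28 CPM per kilobase (SD, n = 5 WT mice), Hoxc6 at 19.5 ± 8.13, Hoxc8 at 15.6 ± 4.70 and Hoxb3 at 12.8 ± 3.09. Hoxd8, a gene of the trunk, stood at 77.1, 58.1, 76.1, 73.8 and 104 CPM in the skins of WT 1 to WT 5 and at 79.4 and 79.1 CPM in KI. Hoxc8 stood at 39.0, 25.5, 39.1, 25.0 and 50.8 CPM in WT, and Hoxc6 at 38.8, 23.9, 42.6, 13 and 44.6 CPM. Hoxd8 had the highest CPM of the Hox genes in every skin, while per length Hoxc6, Hoxc8 and Hoxb3 lay within their SDs of each other. With lengths taken over all exons Hoxb9, Hoxd9 and Hoxc10 stood above Hoxb3. At the tail end of the series Hoxc13, which drives keratin genes of hair and nail, stood in WT at 22.0, 5.64, 13.4, 22.0 and 6.49 CPM. Hoxc13 was the only gene of groups 11 to 13 present in every WT skin.

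Hox genes of the skin up to group 9 differed less between WT mice than those of groups 10 to 13. The SD of log2 CPM had a median of 0.495 over the 33 Hox genes that passed the filter, against 0.258 over all 16163 genes, and 4 of the 33 lay among the 5% of genes with the largest SD. It was 0.408 over 14 genes of groups 1 to 5, 0.505 over 12 of groups 6 to 9 and 1.52 over 7 of groups 10 to 13, and 1.13 over these 7 without WT 2. The smallest SDs were those of Hoxd9 (0.162), Hoxb7 (0.280) and Hoxa2 (0.295). Hoxd9 stood at 21.9, 25.5, 22.2, 27.3 and 27.8 CPM in WT 1 to WT 5, Hoxb7 at 17.3, 10.6, 14.5, 11.8 and 11.9 CPM and Hoxa2 at 5.88, 4.71, 4.14, 6.42 and 4.05 CPM. No skin stood apart in them. The largest SDs were those of Hoxa11 (2.36), Hoxd11 (2.42) and Hoxc11 (2.84), the group that shapes the forearm, the lower leg and the kidney.

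The skin of WT 2 stood apart at the tail end of the series. Hoxa11 had 8, 558, 12, 63 and 17 counts in WT 1 to WT 5, Hoxd11 had 2, 404, 47, 21 and 16, and Hoxc11 had 0, 160, 0, 18 and 0. WT 2 was the highest each time. Hoxd13, which shapes the digits and the urogenital openings, had 1051 counts in WT 2 and at most 1 in any other skin, KI skins included. Hoxb13, a gene of the tail and the prostate, had 879 counts against at most 1, Hoxd12 had 315 against at most 9, and Hoxa13 had 152 against at most 1. Of the 9 genes of groups 11 to 13, 8 reached 10 counts in WT 2 and between 1 and 4 in the other skins. The 12 genes of groups 10 to 13 summed to 215 CPM in WT 2 and to between 24.5 and 73.9 CPM in the other WT skins. Groups 1 to 5 of this skin summed to 127 CPM and groups 6 to 9 to 275 CPM, both inside the range of the other WT skins.

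Other position genes, picked once their values were known, were high in the same skin. Hotair, a noncoding transcript of the Hoxc cluster between Hoxc11 and Hoxc12, had 158 counts in WT 2 and at most 6 elsewhere. Evx1 and Evx2, homeobox genes next to the tail ends of the Hoxa and Hoxd clusters, had 61 and 15 counts against at most 1 in any other skin. Pitx1 and Tbx4, which mark the hind limb, stood at 26.4 and 25.8 CPM in WT 2 and at 6.91 CPM or less in the other 6 skins. All of these were highest in WT 2. Of the 31 transcription factors listed for limb and trunk position, 17 were highest and 5 lowest in WT 2. In the WT 4 skin 8 of them were highest and 12 lowest. The list summed to 702 CPM in WT 2 and to 532 to 668 CPM in the other WT skins. In the KI skins it summed to 478 and 582 CPM. The 10 skeletal muscle genes summed to 6268 CPM in WT 2, the lowest of the 7 skins, against 14764 to 26091 CPM in the other WT skins and 13840 and 16823 CPM in the KI skins. The piece of skin taken from each mouse is not described in the sources used here, and its part in these levels was not tested.

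**Figure D5:**
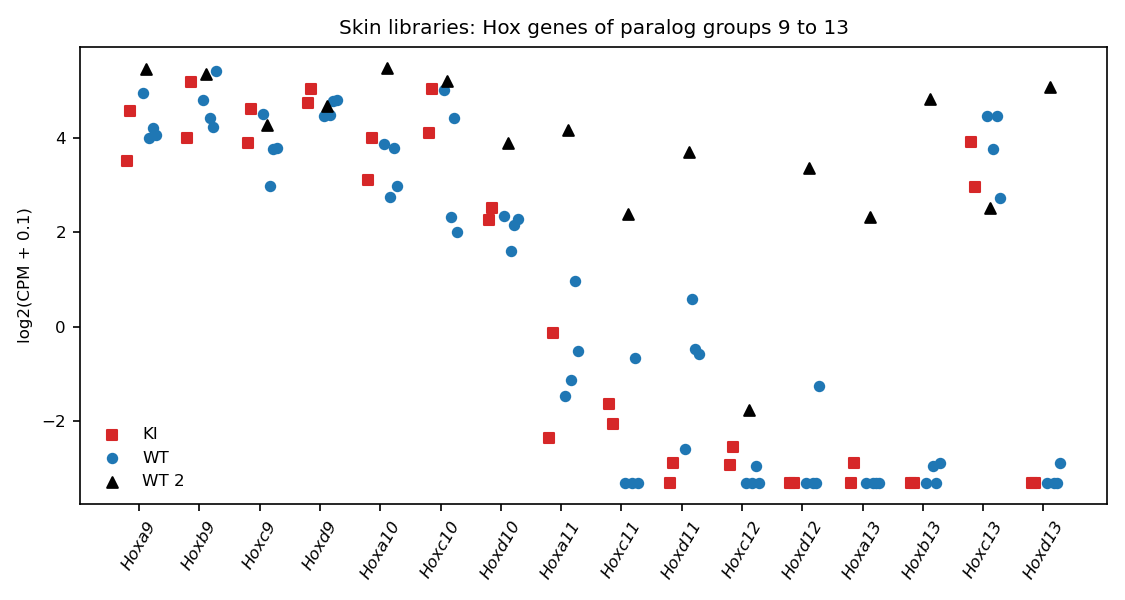
Level of the 16 Hox genes of paralog groups 9 to 13 in 7 skin libraries as log2(CPM + 0.1), 1 point per mouse, with KI mice as red squares, WT mice as blue circles and WT 2 as a black triangle. From Hoxa11 on, the WT 2 triangle lies far above the other points except at Hoxc12, where all counts are low, and at Hoxc13, where it is the lowest point.

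MicroRNA genes lie within the clusters too. Mir196a-1, upstream of Hoxb9, had 15 to 34 counts in each skin and 0 in every brain and liver. It is shown because its mature form is known to pair with Hoxb8 messenger RNA, with the seed (bases 2 to 8) in capitals; RefSeq places it at chr11:96265187-96265208 on the plus strand of GRCm38.p6.
mmu-miR-196a-5p: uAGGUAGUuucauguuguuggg
These libraries count longer transcripts, so that the counts are not a measure of the mature form. Hoxb8 itself was present in every skin, with 350 to 810 counts in WT and 529 and 395 counts in KI.

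In the skin no Hox gene was called between KI and WT mice. Of the 33 tested, 0 passed an adjusted p of 0.1 in edgeR, 1 (lower) had an unadjusted p under 0.05, against 2.89% of all genes higher and 1.68% lower, and DESeq2 called 0. In all genes tested edgeR called 0.0247% higher and 0% lower, and DESeq2 0.662% in either direction. The median log2 fold change was -0.22 over the 33 Hox genes and -0.03 over all genes, with 9 Hox genes above 0 and 24 below. Hoxd11 had the smallest p, with 0 and 1 counts in KI 1 and KI 2 and 2 or more in each WT skin. It passed the filter on low counts only through WT skins, the group in which it was high. Both KI skins lay below all WT skins, as they did for 4.84% of all genes (4.91% lay above), and the log2 fold change was -7.23 (SE 2.77, adjusted p = 0.999 in edgeR). Without WT 2, which held most of the WT counts, it was -4.99.

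The next genes by p in the skin had overlapping groups. Hoxa11 had 3 and 23 counts in KI against 8 to 558 in WT. Hoxd9 stood at 26.4 and 32.9 CPM in KI (29.6 ± 4.57, SD, n = 2) against 24.9 ± 2.77 CPM (SD, n = 5) in WT, a log2 fold change of 0.25 (SE 0.152, adjusted p = 0.999 in edgeR). Hoxc5 stood at 7.09 and 7.89 CPM in KI and at 12.5, 7.92, 9.41, 6.45 and 14.1 CPM in WT. Hoxb6 stood at 8.60 and 7.75 CPM in KI and at 22.1, 6.73, 17.2, 6.28 and 10.3 CPM in WT, and Hoxb2 at 20.6 and 17 CPM in KI and at 27.7, 17.1, 22.7, 18.1 and 28.2 CPM in WT. The KI values of these 3 genes lay in the lower part of the WT range or just under it. Groups 6 to 9 summed to 291 ± 29.7 CPM (SD, n = 2) in KI and 301 ± 43.6 CPM (SD, n = 5) in WT, and groups 10 to 13 to 54.1 ± 12 CPM in KI and 81.4 ± 77.6 CPM in WT. By the study's account the skin RNA was less intact than that of the liver. The 9 epidermal genes listed summed to 1019 and 14400 CPM in the KI skins and to between 1757 and 17618 CPM in the WT skins, so that the skins also differed in epidermis, and its part in the Hox levels was not tested.

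Between tissues of the WT mice, genes were called at an adjusted p under 0.1 and an absolute log2 fold change of at least 1 in edgeR. All 29 Hox genes tested were lower in the liver than in the skin, where 25.7% of all genes were called lower. The 29 are the genes present in the WT skin, and only 6 Hox genes were present in the WT liver. Most of the 29 thus passed the filter on low counts through the skin alone, so that their direction was largely set by the filter. The log2 fold changes, liver against skin, ran from -12.62 to -1.83. Hoxd9 differed most firmly, with at most 1 count in any WT liver and 671 to 925 counts in the WT skins. Hoxa2 and Hoxb4 differed least, both by -1.83 (SE 0.384 and 0.359, adjusted p = 0.00112 and 0.000685 in edgeR). Hoxa3, Hoxa5 and Hoxa4 were also among the genes that differed least.

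Of the 29 Hox genes tested between brain and skin, 15 were lower in the brain, where 27.4% of all genes were called lower, and 2 were higher, where 26.1% were. The 15 included all 8 tested genes of groups 9, 10 and 13. None of these 8 was present in the WT brain, so that they passed the filter on low counts through the skin alone. Hoxd9 was at 0 in every brain and Hoxa9 had at most 2 counts, against 468 to 1367 counts of Hoxa9 in the WT skins. The 2 higher genes were Hoxa5 (log2 fold change 1.78, SE 0.896, adjusted p = 0.0916 in edgeR) and Hoxb5 (2.39, adjusted p = 0.0497 in edgeR). Neither was called when WT 1, WT 3 or WT 4 was left out, or with the mouse as a block, under which 0 were higher and 15 lower. Of groups 3 and 4, which both tissues hold, Hoxb3 stood at -0.14 (SE 0.605) and Hoxc4 at -0.16 (SE 0.719), neither called.

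Of the 12 Hox genes tested between brain and liver, 10 were higher in the brain, where 32.9% of all genes were called higher. Hoxd3, which shapes the first neck vertebra, differed most, with 30 to 1026 counts in the WT brains and at most 1 in the WT livers (log2 fold change 9.99, SE 1.32, adjusted p = 1.53e-05 in edgeR). Hoxc4 followed (6.96, SE 1.11, adjusted p = 7.88e-05 in edgeR). Hoxd3 and Hoxc4 were present in the WT brain and not in the WT liver, so that both passed the filter on low counts through the brain alone. Hoxb4 (0.87, SE 0.815) did not pass. The 3 comparisons share libraries and are given side by side.

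The KI effect was not shown to differ between tissues for any Hox gene. Of the 35 Hox genes tested over all 21 libraries, edgeR called 0 for brain against skin, 0 for liver against skin and 0 for brain against liver, with 0, 1 and 0 at an unadjusted p under 0.05, and DESeq2 called 0 each time. In all genes edgeR called 0% in either direction for brain minus skin, 0.0664% higher and 0.0332% lower for liver minus skin, and 1.05% higher and 1.77% lower for brain minus liver. For Hoxb8 the log2 fold change, KI against WT, was 3.37 in the liver, -0.97 in the brain and -0.24 in the skin. The difference between brain and liver was -4.26 (SE 2.16, adjusted p = 0.362 in edgeR), and that between liver and skin 3.59 (SE 2.15, adjusted p = 1.00 in edgeR). The gene with the unadjusted p under 0.05 was Hoxa13, whose skin counts came almost wholly from WT 2.

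Genes that act around the Hox genes were followed in lists, which together with cell markers held 218 genes. In the brain 0 of 182 listed genes tested were called, with an unadjusted p under 0.05 for 5 above and 7 below WT (2.8% and 7.81% of all genes), and in the skin 0 of 160, with 3 above and 5 below (2.89% and 1.68%). In the liver 5 of 120 were called higher and 2 lower, near the shares of all genes (3.89% and 1.68%), and the called genes are named only as members of the lists. Among the 14 tested genes upstream of Hox, Cyp26b1, which breaks down the Hox-inducing signal retinoic acid, was lower in the KI liver. It had 18 and 9 counts in KI and 82, 129, 139, 101 and 19 in WT (log2 fold change -2.79, SE 0.766, adjusted p = 0.0962 in edgeR), and KI 1 lay just under WT 5. Aldh1a2, which makes retinoic acid, stood at -1.86 (SE 0.543, adjusted p = 0.112 in edgeR) and was not called. None of the 11 TALE genes, whose proteins bind DNA beside Hox proteins, and none of the 27 Polycomb and Trithorax genes, which keep the clusters silent or open, was called in any tissue. Of the 16 genes of blood cell precursors, Spi1 and Runx1 were higher in the KI liver (log2 fold change 0.59 and 0.51, adjusted p = 0.0461 and 0.0502 in edgeR) and Mecom was lower (-2.19, adjusted p = 0.0551). Spi1 guides myeloid cells, Runx1 and Mecom blood stem cells. Twist1 of the 11 mesenchymal genes was higher, with 134 and 199 counts in KI and 9 to 37 in WT. Over these 11 genes the median log2 fold change was -0.57, with an unadjusted p under 0.05 in edgeR for 1 higher and 2 lower. The 12 genes listed summed to 642 and 575 CPM in the KI livers and 518 to 1527 CPM in the WT livers. Of the 20 genes for the hindbrain, 0 of the 19 tested in the brain were called.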

How the data were processed

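The libraries came from 3 organs of 2 KI and 5 WT newborn mice. By the study's methods and the submitters' processing notes, the authors trimmed paired-end reads, aligned them to mm9 with TopHat2 and counted them with HTSeq. The deposited values are raw counts per gene symbol; the annotation behind them is not given in the sources used here. Summary lines were left out; 1.15% to 2.19% of uniquely aligned reads were ambiguous between genes and were not counted, which lowers genes that overlap.

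Hox genes were matched by symbol. KI and WT were compared within each tissue in edgeR 4.0.16 (R 4.3.3) by filterByExpr, TMM and glmQLFTest, its quasi-likelihood test, with Benjamini-Hochberg adjustment over all genes and a level of 0.1. WT tissues were compared 2 at a time, and differences of the KI effect over all 21 libraries. The step was tested on simulated counts in which 200 genes were changed. For the liver edgeR recovered 63.5% of the 2-fold changes with 16 false calls, and DESeq2 70.6% with 60 false calls. Log2 CPM used a prior count of 2. Positions, lengths and homeoboxes came from NCBIM37 with GENCODE vM1. Tables and figures used Python 3.11.15, pandas 2.3.3, numpy 2.4.6 and matplotlib 3.10.9. Alternatives were DESeq2 1.42.0 (its Wald test and its size factors), no filter, a level of 0.05, a joint fit over every library, blocking on replicate number, other minimums for presence, a prior count of 0.5 and each mouse left out in turn. Leaving out both low-forebrain WT brains, and a KI mouse from the Hoxa13 bound, was chosen after seeing the data.

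The Hox genes, the gene lists and the tests were chosen with earlier results of these data known. Values in every sample are given for the 4 highest genes per length in each tissue, the 6 with the smallest p in each KI comparison, those of the lowest and highest paralog group present and the 3 with the largest and smallest spread. Same-numbered WT libraries of different tissues were taken as 1 mouse, since the study used 2 and 5 mice for all 3 organs. After group means were removed they correlated over genes with a mean r of 0.0763 (brain and liver), 0.0724 (brain and skin) and 0.101 (liver and skin). Some of these values are not reported here.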

Additional observations from a re-analysis of the deposited data

Results flagged for a closer look

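Among the 5 WT mice of a tissue, the highest or lowest CPM of a Hox gene was set against the nearest other value, and a value was taken as far from the others when that gap exceeded 0.710 of the whole range (Dixon's test at 5 samples). Of 73 combinations of gene and tissue with at least 10 counts in a WT library, 14 had such a value: 3 of 23 in the brain, 1 of 13 in the liver and 10 of 37 in the skin. Chance flags about 1 in 20 groups, and the genes share libraries.

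Of the 10 in the skin, 9 were the WT 2 mouse. Its Hoxd13 stood at 33.7 CPM, its Hoxb13 at 28.2 CPM and its Hoxa13 at 4.87 CPM, while the nearest other skin stood at 0.0352 CPM or less for each. Its Hoxd12 stood at 10.1 CPM against 0.317, its Hoxd11 at 12.9 CPM against 1.40, its Hoxa11 at 17.9 CPM against 1.86 and its Hoxc11 at 5.13 CPM against 0.530. Its Hoxa10 stood at 44.6 CPM against 14.5 and its Hoxd10 at 14.6 CPM against 5.00. The remaining value was that of Hoxd3 in the WT 5 skin, 11.2 CPM against 7.40.

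In the brain all 3 were the WT 3 mouse. Its Hoxb9 stood at 3.49 CPM against 0.476 in the nearest other WT brain, its Hoxa7 at 1.92 CPM against 0.536 and its Hoxc8 at 0.880 CPM against 0.0399. In the liver Hoxa7 of WT 5 stood at 0.602 CPM against 0.188, which is 20 counts. No Hox gene moved in opposite directions in every KI sample of 2 tissues.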

How the results depend on the processing

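Of 204 recomputed summary values 191 stayed near the main value. Counts of genes had to stay within 1.5 times, and a count of 0 that stayed 0 was included. Median spreads had to stay within the SD over the Hox genes, and ratios of summed levels within the SD over the WT mice. Direction was not part of this rule. In the liver the number of Hox genes called, 1, was 2 without a filter (Hoxa13 with Hoxb8), 0 at a level of 0.05, 0 in 1 fit of all 21 libraries and 0 to 1 with a mouse left out (0 without KI 1, KI 2 or WT 2). Without a filter 26 rather than 17 Hox genes were called between WT brain and skin and 21 rather than 10 between brain and liver, with 39 and 30 tested. Presence asked in at least 3 of the 5 WT libraries gave 19 genes rather than 9 in the brain and 10 rather than 6 in the liver, where a minimum of 3 counts gave 10 and one of 30 counts gave 2. With each mouse left out in turn the log2 fold change of Hoxa2 in the brain, -0.31, ran from -0.55 (without WT 5) to 0.0086 (without WT 1).

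KI and WT mice share replicate numbers, but only 2 of them, and nothing ties the numbers to a litter or a day. For same-numbered libraries the mean r was 0.117 (skin), -0.0600 (liver) and -0.0368 (brain). With the number as a replicate block 0 Hox genes were called in the liver (Hoxb8 2.63, adjusted p = 0.208 in edgeR), and in the brain Hoxb7 stood at 0.0016 and Hoxb8 at 0.51. The block changed no other Hox call between KI and WT. With the mouse as a block 9 rather than 10 Hox genes were higher in WT brain than liver. Leaving out WT 5 raised the number of all genes called in the brain from 0 to 1698, with 0 Hox genes among them. Counts of Hox genes in the liver were low, and small differences there were not detectable at this depth.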

Other observations

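Noncoding transcripts that start within the clusters were counted under their own symbols. Hotairm1, of the Hoxa cluster, had 187, 42, 124, 89 and 22 counts in the brains of WT 1 to WT 5, lowest in the same 2 brains as Hoxa2 and Hoxa5, 68 and 69 counts in the KI brains, 11 to 54 counts in the livers and 71 to 242 counts in the skins. Hoxb5os, on the strand opposite Hoxb5, had 39, 0, 33, 13 and 0 counts in the WT brains. Hoxa11os, opposite Hoxa11, had 645 counts in the WT 2 skin and at most 36 in any other skin. Since strand is not marked, these values and those of the Hox genes opposite can hold reads of each other.

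The Hox cofactor genes Meis1 and Meis2 stood at 79.3 and 86 CPM in the WT 2 skin and at no more than 44.8 and 41.0 CPM in the other skins. In the brain Meis1 stood at 91.9, 47.3, 85.2, 46.4 and 26 CPM in WT 1 to WT 5.

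Tbx5, a gene of the forelimb, stood at 3.07, 14.4, 10.7, 0.501 and 23.9 CPM in the skins of WT 1 to WT 5 and 2.02 and 8.76 CPM in those of KI 1 and KI 2, in an order unlike that of Tbx4.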
